A study of Mus musculus with 6 samples.

Results

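The genes described here make, break down and transmit the second messenger cAMP: the adenylyl cyclases, the cyclic nucleotide phosphodiesterases, the subunits of protein kinase A (PKA) and the A-kinase anchoring proteins (AKAPs). They were taken from the table of hippocampal expression by gene symbol (Adcy, Pde, Prkar, Prkac or Akap followed by the number and letter of a family member), which found 54 of 16060 rows, each with a symbol of its own. These were 10 cyclases, 21 phosphodiesterases, 6 PKA subunits, 15 AKAPs and 2 genes that carry a Pde symbol without encoding a phosphodiesterase, Pde4dip and Pde6d. Of the 54 genes, 47 passed the filter on low values and were tested, among 13321 genes of the table in all.

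The 6 libraries came from the hippocampus, 3 in the control group and 3 in the MA group, and each was taken as 1 mouse. The mice were adult male C57BL/6 mice of no further genotype. The MA group had been given methamphetamine, a psychostimulant that raises extracellular dopamine and other monoamines, in rising doses over 3 weeks, and the control group had been given saline. The comparison asks which transcripts of the hippocampus differed after this treatment. The samples are described as hippocampus without a subregion, and the cell types of the tissue were measured together. In such a sample, fewer cells of a type and less RNA per cell cannot be told apart. Levels are given as the deposited values, read as log2 of RPKM plus 1. RPKM is a read number scaled by gene length and by library size, so that levels of different genes can be set side by side. The deposited values carry a further step, as single values recur between libraries for different genes. Thus 10.7688 stood for Nrgn in Control replicate 2 and MA replicate 3, Ttr in MA replicate 1 and Mbp in MA replicate 2. Sums and shares of RPKM below were formed from these values and are not plain scaled read numbers. Log2 fold changes were taken on the log2 scale by subtracting the control mean from the MA mean, which understates changes of genes with low levels. The table gives no read totals, so that the depth of a library cannot be stated. All p-values are two-sided, and with 3 libraries against 3 the exact permutation test used for single genes cannot go under 0.1, the value of every gene whose groups do not overlap.

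Adenylyl cyclases convert ATP to cAMP when receptors coupled to the G protein Gs are occupied, and isoforms differ in whether calcium and calmodulin stimulate them, as for Adcy1, Adcy3 and Adcy8, or calcium inhibits them, as for Adcy5 and Adcy6. Phosphodiesterases hydrolyse cAMP, cGMP or both. PKA is a complex of regulatory and catalytic subunits, in which cAMP frees the catalytic subunits, and AKAPs hold PKA near its substrates. In the hippocampus this pathway is known for its part in long-term potentiation and memory, and in the striatum dopamine receptors act on it in opposite directions.

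The library labelled MA replicate 3 stood apart from the other 5. Its mean correlation with the other libraries of its group across the genes tested was 0.978, against 0.984 and 0.985 for MA replicates 1 and 2 and at least 0.991 for the control libraries, and limma's sample quality weights gave it 0.194 where the other libraries received between 0.937 and 2.45. It listed no gene at 0 and had a lowest value of 0.00021, whereas the other libraries listed between 259 and 437 genes at 0. MA replicate 3 held the lowest of the 6 values for 26 of the 47 members tested, where it did so for 29.8% of all genes tested. It held the highest value for 6 members, where this was so for 25.6% of all genes. Set against the mean of MA replicates 1 and 2, it was lower for 36 of the 47 members and for 50.6% of all genes tested. The median difference was -0.21 for the members, while the median over all genes was -0.0058.

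This difference of MA replicate 3 also moved with gene length. Over the exonic lengths of the GENCODE M21 annotation, its median was 0.18, 0.022, -0.060 and -0.17 in 4 bins of like size from the shortest to the longest genes. MA replicates 1 and 2 moved with length as well, in the opposite direction: the medians of their mean minus the control mean were -0.064, -0.017, 0.0092 and 0.038 in these bins. A fit without MA replicate 3 thus sets long genes somewhat higher in the MA group. The members were long genes, with a median of 6461 exonic bases against 4503.5 for all genes tested, and 20 of the 47 were in the bin of the longest. The part of length in the members' values was not tested. Many log2 fold changes below are therefore given with and without this library.

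**Figure D1:**
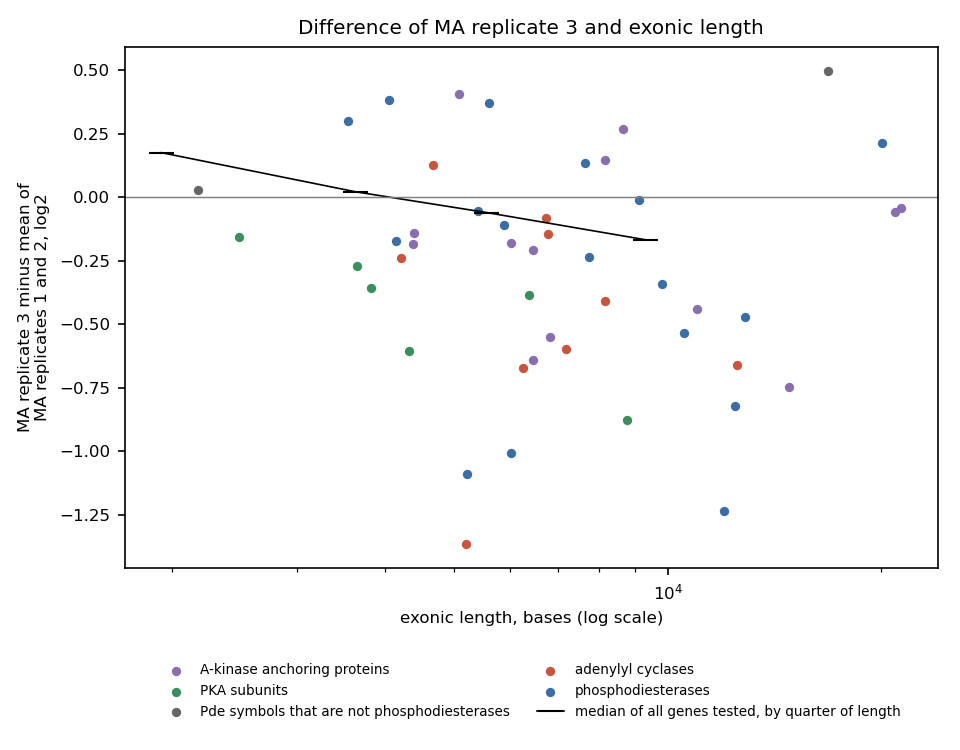
Difference of MA replicate 3 from the mean of MA replicates 1 and 2 (log2, y axis) against exonic length (bases, log axis) for the 47 members tested, coloured by family; the line joins the medians of all genes tested in 4 bins of length. Of the 47 members 36 lie under 0, where 50.6% of all genes tested do.

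The tissue was checked against marker genes. All 12 genes listed as markers of hippocampal excitatory neurons were found and tested, none was at 0 in any library, and their most abundant gene was Nrgn. Their summed RPKM was 3531, 3310 and 3348 in the control libraries and 3249, 3486 and 3114 in the MA libraries, and 2 of the 12, Neurod6 and Wfs1, were lower in the MA group at an unadjusted limma p under 0.05. All 10 choroid plexus markers were higher in each MA library than in each control library, and 5 of them passed an adjusted limma p under 0.05. F5 and Slc4a5, the latter among these 5, were under the filter's RPKM of 0.5 in every control library and were tested for their values in the MA libraries. Aqp1, also among these 5, reached that RPKM in Control replicate 3 alone of the control libraries, and it too was tested for its MA values. The summed RPKM of all 10 choroid plexus markers, led by Ttr, was 67.3, 176 and 423 in the control libraries and 1784, 2318 and 5093 in the MA libraries, with none at 0. In MA replicate 3, Ttr was at 12.2976, the highest value that all libraries share, so that the sum there is bounded by this value. The 5 blood genes found were likewise higher in every MA library, with sums of 1599, 2024 and 1911 against 4378, 3319 and 3849, led by Hba-a2. Thus the MA libraries held more choroid plexus and blood transcripts than the control libraries.

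The summed markers of other regions and cell types overlapped between the groups. The 8 thalamic markers, led by Ptpn3, summed to 27.1, 29.5 and 38.0 in the control libraries and 54.5, 57.8 and 24.9 in the MA libraries, so that MA replicates 1 and 2 were high and MA replicate 3 was the lowest of all. All 8 had a higher mean in the MA group, 1 of them, Ramp3, at an unadjusted limma p under 0.05, and each overlapped between the groups. The 9 striatal markers found, led by Tac1, summed to 16.3, 17.4 and 23.5 against 22.6, 20.1 and 22.6, and of the 5 tested 1 was higher at that p, Syndig1l, without overlap. For 10 vascular and meningeal genes, led by Cldn5, the sums were 84.6, 90.4 and 97.4 against 132, 117 and 94.6, and 2 were higher in the MA group at an unadjusted limma p under 0.05. Oligodendrocyte sums, led by Mbp, lay between 2724 and 3350 in the 6 libraries, and none of the 8 genes passed that threshold. Astrocyte sums, led by Gfap, lay between 321 and 435, and all 7 genes had a lower mean in the MA group, 1 of them at that p. Microglial sums, led by C1qa, lay between 175 and 186, and 0 of 7 genes passed.

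None of the 47 members passed an adjusted p under 0.05 (limma, Benjamini-Hochberg over 13321 genes), a call that 0.263% of all genes tested received. At an unadjusted limma p under 0.05, 2 members were higher in the MA group, Adcy6 and Adcy5, where 4.99% of all genes were, and 2 were lower, Adcy2 and Pde4dip, where 5.46% were. Each MA library was above each control library for 2 members, Adcy6 and Adcy5, against 7.32% of all genes, and below each for 2, Adcy2 and Pde10a, against 10.2%. The members' shares were thus no larger than those of the whole table: 4.26% in each of these 4 counts. Their median log2 fold change was 0.0068, with 26 higher and 21 lower, beside -0.010 for all genes tested. With 1 library left out, the members' median lay between -0.052 (without MA replicate 1) and 0.042 (without MA replicate 3). Leaving out Control replicates 1, 2 and 3 gave 1, 2 and 2 members higher and 0, 0 and 1 lower at an unadjusted limma p under 0.05, beside 3.21%, 3.65% and 3.86% of all genes higher and 3.02%, 3.19% and 3.73% lower. Leaving out MA replicates 1, 2 and 3 gave 2, 1 and 13 members higher and 1, 1 and 3 lower, beside 4.62%, 4.13% and 11.9% of all genes higher and 4.06%, 3.61% and 11.4% lower.

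The cyclases held 3 of the 4 members past the unadjusted threshold. Adcy6 (ENSMUSG00000022994), a calcium-inhibited cyclase found in many tissues, had levels of 2.78, 2.75 and 2.82 in Control replicates 1, 2 and 3 and of 3.20, 3.21 and 3.06 in MA replicates 1, 2 and 3. The groups did not overlap, and the gap between them was wider than the range within either. Its means were 2.78 ± 0.036 and 3.16 ± 0.084 (SD, n = 3 each), and the log2 fold change between them was 0.37 with a standard error of 0.092 (limma p = 0.00436, adjusted p = 0.238, exact permutation p = 0.1). In RPKM this was 5.89 in the control group and 7.92 in the MA group. Without MA replicate 3 the log2 fold change was 0.42, and in the 6 fits that each left out 1 library it lay between 0.34 and 0.42 with an unadjusted limma p under 0.05 in each. An antisense gene, Gm29331, covers 8.92% of the exonic bases of Adcy6, and as the strand of counting is not stated, reads of the pair cannot be told apart there.

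Adcy5 (ENSMUSG00000022840), the other calcium-inhibited cyclase and the main isoform of striatal projection neurons, had levels of 3.06, 3.51 and 3.47 in the control libraries and 4.14, 4.12 and 3.53 in the MA libraries. MA replicates 1 and 2 were high, MA replicate 3 lay just above the highest control library, and Control replicate 1 was low. With means of 3.34 ± 0.25 and 3.93 ± 0.34 (SD, n = 3 each), the log2 fold change was 0.59 with a standard error of 0.20 (limma p = 0.0191, adjusted p = 0.370, exact permutation p = 0.1). It was 0.78 without MA replicate 3, and the unadjusted limma p stayed under 0.05 without Control replicate 2, Control replicate 3 or MA replicate 3 and was lost without each other library. Of the 5 striatal markers tested, 4 were higher in the MA group. Syndig1l was higher in each MA library, with 1.89, 1.89 and 1.88 against 2.09, 2.27 and 2.20 (limma adjusted p = 0.350, exact permutation p = 0.1), and so was Six3, which was under the filter, with 0.030, 0.079 and 0.21 against 0.79, 1.20 and 0.48. Drd1, Rgs9 and Tac1 overlapped, as did Drd2, Ido1 and Sh3rf2, which were under the filter. Tac1, the most abundant, had a log2 fold change of -0.028, and the phosphodiesterase Pde10a, another gene of these neurons, was lower in each MA library (-0.21). The part of striatal, thalamic, choroid plexus and blood transcripts in the values of Adcy5 and Adcy6 was not tested.

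Adcy2 (ENSMUSG00000021536), a cyclase that G protein beta-gamma subunits can stimulate, lay in the opposite direction. Its levels were 4.75, 4.79 and 4.83 in the control libraries and 4.57, 4.64 and 4.37 in the MA libraries. Every MA library was below every control library, and MA replicate 3 was the lowest. The log2 fold change was -0.26 with a standard error of 0.096 (limma p = 0.0275, adjusted p = 0.413, exact permutation p = 0.1) from means of 4.79 ± 0.042 and 4.53 ± 0.14 (SD, n = 3 each), and it was -0.18 without MA replicate 3. An unadjusted limma p under 0.05 was kept without any 1 of the MA libraries and lost without any 1 of the control libraries. The antisense gene Gm35161 covers 4.49% of its exonic bases.

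The makeup of the cyclase transcripts followed these values. Summed over the 10 cyclases, RPKM was 109, 102 and 122 in the control libraries and 130, 133 and 87.9 in the MA libraries, lowest in MA replicate 3. Adcy5 and Adcy6 together made up 12.1%, 15.7% and 13.2% of this sum in the control libraries and 19.1%, 18.4% and 20.4% in the MA libraries. The groups did not overlap, and MA replicate 3, low in the sum, was the highest in this share. For Adcy2 the shares were 23.8%, 26.1% and 22.5% against 17.5%, 18.0% and 22.3%, with MA replicate 3 close under the lowest control library.

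Adcy1, the calmodulin-stimulated cyclase of hippocampal and cortical neurons, was the most abundant cyclase, with 47.5% ± 3.30 of the sum in the control group and 46.7% ± 1.69 in the MA group (SD, n = 3 each). Its levels were 5.80, 5.52 and 5.91 in the control libraries and 5.97, 6.02 and 5.33 in the MA libraries. MA replicates 1 and 2 were above all control libraries and MA replicate 3 below them, and the log2 fold change of 0.034 (exact permutation p = 0.9) was smaller than the SD of either group. Adcy3, known from olfactory cilia and the primary cilia of neurons, showed the same order of libraries, with 2.41, 2.34 and 2.61 against 2.77, 2.83 and 2.13. It shares 22.1% of its exonic bases with Cenpo on the other strand.

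Adcy9, a widely expressed cyclase that forskolin stimulates weakly, varied most between the MA libraries of all the cyclases. It had 2.79, 2.63 and 3.08 in the control libraries and 3.25, 3.45 and 1.99 in the MA libraries, an SD of 0.79 in the MA group against 0.23 in the control group. MA replicate 3 was the lowest of the 6 by a wide margin, and the log2 fold change of 0.063 with all libraries became 0.52 without it (limma adjusted p = 0.971 and 0.108). Adcy8, Adcy4 and Adcy7, with mean levels of 2.13, 1.29 and 0.71 in the control group, had log2 fold changes of -0.027, -0.11 and -0.068, and their groups overlapped. Without MA replicate 3 these were 0.11, -0.15 and -0.041, so that Adcy8 changed sign.

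**Figure D2:**
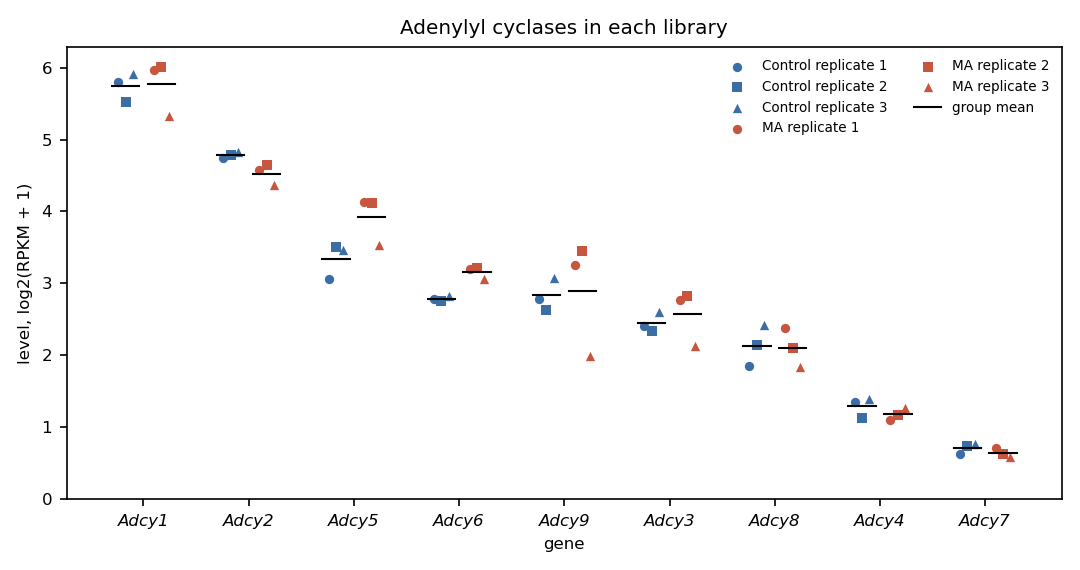
Levels of the 9 cyclases tested in each library (y axis, log2 of RPKM plus 1), ordered by mean level, with symbols for replicates and black lines for group means. Adcy5 and Adcy6 are higher and Adcy2 lower in every MA library than in every control library. MA replicate 3 is the lowest library for Adcy1, Adcy2, Adcy3, Adcy7, Adcy8 and Adcy9.

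Of the 21 phosphodiesterases, 17 were tested, and none passed the unadjusted limma threshold of 0.05 with all 6 libraries at equal weight, except Pde1c with no filter or without the trend. Their summed RPKM was 197, 208 and 214 in the control libraries and 231, 229 and 192 in the MA libraries, again lowest in MA replicate 3. Enzymes that hydrolyse both cAMP and cGMP (the Pde1, Pde2, Pde3, Pde10 and Pde11 families) made up 63.5% ± 0.371 of the sum in the control group and 64.7% ± 1.94 in the MA group, the cAMP-specific Pde4, Pde7 and Pde8 families 32.3% ± 0.370 and 30.8% ± 1.11, and the cGMP-specific families 4.18% ± 0.191 and 4.46% ± 0.902 (SD, n = 3 each).

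Among the dual enzymes, the most abundant was Pde2a, which cGMP stimulates, with 5.89, 6.03 and 6.00 in the control libraries and 6.11, 6.08 and 5.93 in the MA libraries. Its groups overlapped, and it made up 30.0% ± 0.888 and 29.9% ± 1.06 of the phosphodiesterase sum (SD, n = 3 each). The identifier of its row is not that of Pde2a in GENCODE M21 but of Gm45837, a gene on the same strand that covers 64.3% of the exonic bases of Pde2a, so that its reads are uncertain. Pde1b, a calmodulin-stimulated enzyme abundant in striatum and dentate gyrus, varied little between the 6 libraries, with 5.18, 5.16 and 5.28 against 5.26, 5.20 and 5.17, a log2 fold change of 0.00014 that changed sign with the scaling of the libraries.

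Pde1a and Pde11a stood out for their spread between the MA libraries, and they are described for values seen in the fit without MA replicate 3. Pde1a (ENSMUSG00000059173), another calmodulin-stimulated enzyme, had 4.48, 4.56 and 4.63 in the control libraries and 5.15, 5.24 and 4.19 in the MA libraries. MA replicates 1 and 2 were above every control library and MA replicate 3 was below every one, so that the groups overlapped. The log2 fold change was 0.30 with a standard error of 0.26 (limma adjusted p = 0.744, exact permutation p = 0.4). Without MA replicate 3 it was 0.64 with a standard error of 0.076 (limma adjusted p = 0.0274). It fell to 0.16 without MA replicate 1 and to 0.11 without MA replicate 2. Its share of the phosphodiesterase sum was 10.9%, 10.8% and 11.1% in the control libraries and 14.9%, 16.1% and 8.97% in the MA libraries.

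Pde11a (ENSMUSG00000075270), a dual enzyme known in brain for its enrichment in the ventral hippocampus, had low levels of 0.75, 0.73 and 1.12 in the control libraries and 1.89, 1.80 and 0.76 in the MA libraries. The first 2 MA libraries were again high, and MA replicate 3 lay among the control libraries. The log2 fold change was 0.62 with a standard error of 0.30 (limma adjusted p = 0.535, exact permutation p = 0.2), the largest of all 47 members, and without MA replicate 3 it was 0.98 (standard error 0.15, adjusted p = 0.0376 from limma). It was 0.41 without MA replicate 1 and 0.46 without MA replicate 2. With all libraries and pseudocounts of 0.1 and 0.01 it was 0.97 and 1.04. The summed thalamic markers were likewise high in MA replicates 1 and 2. The part of thalamic transcripts in its values was not tested.

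Pde1c, a calmodulin-stimulated enzyme of low level, had 0.86, 0.70 and 0.75 in the control libraries and 0.80, 1.27 and 1.25 in the MA libraries. Here MA replicate 1 lay among the control libraries and the other 2 were high, unlike in Pde1a. The log2 fold change was 0.34 with a standard error of 0.15 (limma adjusted p = 0.503, exact permutation p = 0.2), and an unadjusted limma p under 0.05 was reached with no filter, without the trend, with sample quality weights and without MA replicate 1, and in no other fit. Pseudocounts of 0.1 and 0.01 gave log2 fold changes of 0.62 and 0.68. For Pde10a, the dual enzyme that marks striatal projection neurons, the levels were 2.86, 2.91 and 2.85 against 2.82, 2.82 and 2.34. All MA libraries were below all control libraries, yet MA replicates 1 and 2 by a small margin, and the log2 fold change of -0.21 (exact permutation p = 0.1) became -0.055 without MA replicate 3. Pde3b, which insulin activates in fat, was at 1.88, 1.52 and 1.65 against 1.41, 1.52 and 1.46, with overlapping groups.

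The cAMP-specific enzymes showed no member past the threshold. The most abundant, Pde8b, was at 4.43, 4.38 and 4.52 in the control libraries and 4.39, 4.41 and 4.29 in the MA libraries, and Pde4a, a target of rolipram like the other Pde4 enzymes, at 4.28, 4.43 and 4.42 against 4.38, 4.31 and 4.48. In both the groups overlapped and differed by less than 0.1. Pde4d, also of the rolipram-sensitive family, had 1.79, 1.80 and 1.97 against 2.49, 2.29 and 1.15. As in Pde1a, MA replicates 1 and 2 were above and MA replicate 3 below every control library, with a log2 fold change of 0.12 (exact permutation p = 0.9) that was 0.53 without MA replicate 3 (limma adjusted p = 0.0689). Pde4b had 3.02, 3.46 and 3.58 against 3.81, 3.60 and 3.17, and the log2 fold change of Pde7b, lowest in MA replicate 3, was 0.060 with all libraries and 0.33 without that library. Pde8a showed another order, with 2.34, 2.43 and 2.39 against 2.10, 2.23 and 2.55, where MA replicate 3 was the highest library. Pde7a and Pde4c had log2 fold changes of -0.19 and 0.00036, or -0.11 and -0.12 without MA replicate 3, and overlapping groups.

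Of the cGMP-specific enzymes, Pde9a, which has a high affinity for cGMP, was the most abundant, with 2.88, 3.15 and 3.07 in the control libraries and 3.08, 3.17 and 3.43 in the MA libraries. The groups overlapped, and the log2 fold change was 0.19 (exact permutation p = 0.2) and 0.095 without MA replicate 3. Pde5a, the target of sildenafil, was at 1.13, 1.03 and 1.20 against 1.14, 0.99 and 0.72.

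**Figure D3:**
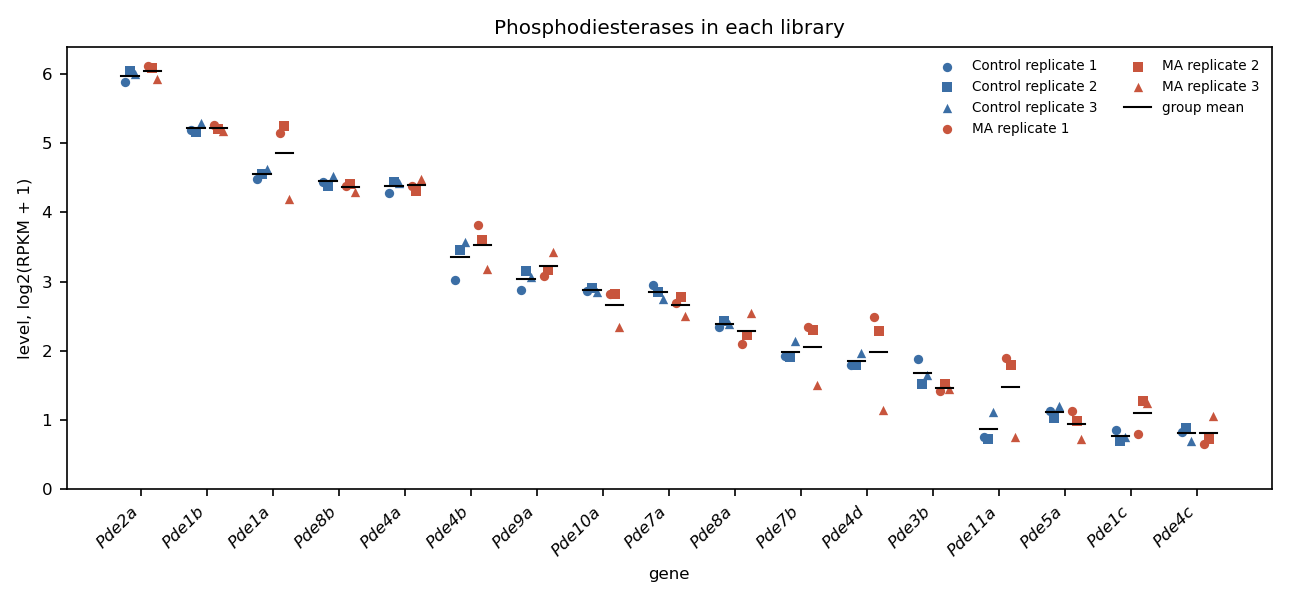
Levels of the 17 phosphodiesterases tested in each library (y axis, log2 of RPKM plus 1), ordered by mean level, with symbols for replicates and black lines for group means. MA replicate 3 lies far under MA replicates 1 and 2 for Pde1a, Pde4d and Pde11a, while the 6 values of Pde1b lie between 5.16 and 5.28.

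The 2 genes with a Pde symbol that are not phosphodiesterases were given beside these. Pde4dip (ENSMUSG00000038170), which encodes myomegalin, a large protein of the centrosome and Golgi that binds Pde4d, had levels of 5.85, 6.00 and 5.52 in the control libraries and 4.95, 5.27 and 5.61 in the MA libraries. MA replicates 1 and 2 were below every control library, and MA replicate 3 lay between Control replicates 3 and 1, so that the groups overlapped. From means of 5.79 ± 0.25 and 5.28 ± 0.33 (SD, n = 3 each), the log2 fold change was -0.51 with a standard error of 0.19 (limma p = 0.0278, adjusted p = 0.413, exact permutation p = 0.2), the lowest of the 47 members. It was -0.68 without MA replicate 3 (adjusted p = 0.0799 from limma), and the unadjusted limma p stayed under 0.05 without Control replicate 3 or MA replicate 3 and was lost without each other library. Pde6d, which carries prenylated proteins between membranes, was at 5.46, 5.52 and 5.57 against 5.50, 5.43 and 5.50, and its groups overlapped.

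All 6 PKA subunits were tested, and none passed the unadjusted limma threshold of 0.05 with all 6 libraries at equal weight. Prkar1b, the type I regulatory subunit of neurons, was the most abundant of all members, with 7.46, 7.61 and 7.59 in the control libraries and 7.80, 7.68 and 7.38 in the MA libraries. Prkar1a, the widely expressed type I subunit, had 7.45, 7.42 and 7.57 against 7.84, 7.71 and 7.17. In both genes MA replicates 1 and 2 were above every control library and MA replicate 3 below every one. The log2 fold changes were 0.067 and 0.090 (exact permutation p = 0.7 for each) and 0.19 and 0.29 without MA replicate 3 (limma adjusted p = 0.190 and 0.0869).

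The type II regulatory subunits were much lower. Prkar2a was at 3.53, 3.46 and 3.57 in the control libraries and 3.53, 3.50 and 3.13 in the MA libraries, and Prkar2b, the type II subunit of brain and fat, at 3.13, 3.18 and 3.53 against 3.48, 3.09 and 3.01. Type I subunits made up 95.0% ± 0.313 of the regulatory RPKM in the control group and 95.6% ± 0.221 in the MA group (SD, n = 3 each). This share was higher, and that of Prkar2a lower, in each MA library than in each control library, by small amounts. The summed regulatory RPKM was 368, 383 and 402 against 470, 430 and 324, and MA replicate 3 was the lowest here as well.

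Of the catalytic subunits, Prkaca was at 6.52, 6.57 and 6.64 in the control libraries and 6.59, 6.58 and 6.43 in the MA libraries, and its log2 fold change was -0.045 (exact permutation p = 0.7). Prkacb, the other widely expressed catalytic subunit, had 5.36, 5.42 and 5.84 against 6.12, 5.90 and 5.13. It spread more than Prkaca in both groups and like the type I subunits had MA replicates 1 and 2 above and MA replicate 3 below every control library, with a log2 fold change of 0.18 (exact permutation p = 0.7) that was 0.47 without MA replicate 3 (limma adjusted p = 0.145). While the sums moved between libraries, the ratio of regulatory to catalytic RPKM was 2.82, 2.81 and 2.58 in the control libraries and 2.86, 2.81 and 2.72 in the MA libraries. This ratio was 2.74 ± 0.134 and 2.79 ± 0.0742 (SD, n = 3 each), less apart than the control libraries were among themselves.

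Of the 15 AKAPs, 13 were tested, and all 13 had overlapping groups, with log2 fold changes from -0.16 to 0.18 and none at an unadjusted limma p under 0.05. Akap8l, a nuclear protein of the AKAP95 family, was the most abundant, with 5.07, 5.04 and 4.89 in the control libraries and 5.07, 5.01 and 5.45 in the MA libraries. MA replicate 1 lay at the upper end of the control range and MA replicate 3 well above it, and the share of Akap8l in the summed AKAP RPKM was 32.7% there and between 22.0% and 25.0% in the other 5 libraries. This sum was 134, 127 and 130 in the control libraries and 135, 137 and 131 in the MA libraries. Unlike the sums of the cyclases, phosphodiesterases and PKA subunits, it was not lowest in MA replicate 3.

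Akap5, the anchor of PKA and calcineurin at postsynaptic sites, had 3.21, 3.25 and 3.31 in the control libraries and 3.46, 3.43 and 2.90 in the MA libraries. Akap6, which anchors PKA at the nuclear envelope, had 3.31, 3.28 and 3.40 against 3.61, 3.66 and 2.89. In both, MA replicates 1 and 2 were above every control library and MA replicate 3 below every one, and the log2 fold changes of 0.0068 and 0.060 were 0.19 and 0.31 without MA replicate 3 (limma adjusted p = 0.210 and 0.0906). Akap11, which binds both PKA and the kinase GSK3, had 4.38, 4.25 and 4.39 against 4.50, 4.52 and 4.07. Akap12, a scaffold at the plasma membrane, had 1.55, 1.57 and 1.99 against 2.01, 1.94 and 1.33.

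Other AKAPs moved less between the MA libraries. Akap9, of the centrosome and Golgi, was at 3.20, 3.12 and 3.08 in the control libraries and 3.14, 2.91 and 2.99 in the MA libraries. Akap1, of the outer mitochondrial membrane, had a log2 fold change of -0.11, and of -0.063 without MA replicate 3. Akap8, of the nuclear matrix, was at 3.97, 3.95 and 3.96 against 3.81, 3.89 and 4.12. Akap7, Akap10, Akap13 and Akap17b had log2 fold changes of 0.053, -0.16, 0.13 and -0.16, and of 0.11, -0.092, 0.15 and -0.10 without MA replicate 3. Akap2 shares 84.4% of its exonic bases with Pakap on the same strand. Its log2 fold change of -0.081, or -0.13 without MA replicate 3, is uncertain for that reason.

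The 7 members under the filter were Adcy10, the soluble cyclase, Pde3a, the photoreceptor enzymes Pde6a, Pde6b and Pde6c, and Akap3 and Akap14, both known from sperm or cilia. Their values lay between 0 and 0.60 in the 6 libraries. They were not tested, and levels this low are not separated from 0 by a known depth.

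In the fit without MA replicate 3, 2 members passed an adjusted limma p under 0.05, Pde1a and Pde11a, where 1.93% of all genes did. At an unadjusted limma p under 0.05, 13 members were higher in the MA group, where 11.9% of all genes were, and 3 were lower, Adcy2, Pde4dip and Pde8a, where 11.4% were. The 13 were Adcy3, Adcy5, Adcy6, Adcy9, Pde1a, Pde4d, Pde7b, Pde11a, Prkar1a, Prkar1b, Prkacb, Akap5 and Akap6. Each of the 2 remaining MA libraries was above each control library for 17 members against 20.8% of all genes, and below each for 5 against 22.1%. The members' shares, 27.7% higher at an unadjusted p and 36.2% higher without overlap, were above those of the whole table, and their median log2 fold change was 0.042 beside -0.0080 for all genes. MA replicate 3 had been the lowest of the 6 libraries for 10 of the 13, and 2 MA libraries against 3 control libraries remained. Markers moved in the same fit as well. All 8 thalamic markers were higher, 6 of them at an unadjusted limma p under 0.05 and 0 at an adjusted one, with a median log2 fold change of 0.56. At an unadjusted limma p under 0.05, 5 of 8 oligodendrocyte genes were lower (median -0.38) and 5 of 10 vascular and meningeal genes higher, while of 12 hippocampal genes 1 was higher and 3 were lower. All 10 choroid plexus and all 5 blood genes were higher at that p, 8 and 5 of them at an adjusted limma p under 0.05. Of the striatal, astrocyte and microglial genes, 1, 1 and 1 were higher and 0, 0 and 1 lower. The part of tissue makeup and gene length in these counts of members was not tested.

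Sample quality weights, which kept MA replicate 3 at low weight, gave a similar count. An adjusted limma p under 0.05 was reached by 4 members, Adcy5, Adcy6, Pde1a and Pde11a, where 4.4% of all genes reached it. At an unadjusted p, 11 members were higher (these 4 with Adcy3, Adcy9, Pde1c, Pde4d, Prkar1a, Prkacb and Akap6), where 12.9% of all genes were, and 2 were lower, Adcy2 and Pde4dip, where 13.4% were. The adjusted limma p was 0.0345 for Adcy5, 0.0275 for Adcy6, 0.0472 for Pde1a and 0.0337 for Pde11a.

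**Figure D4:**
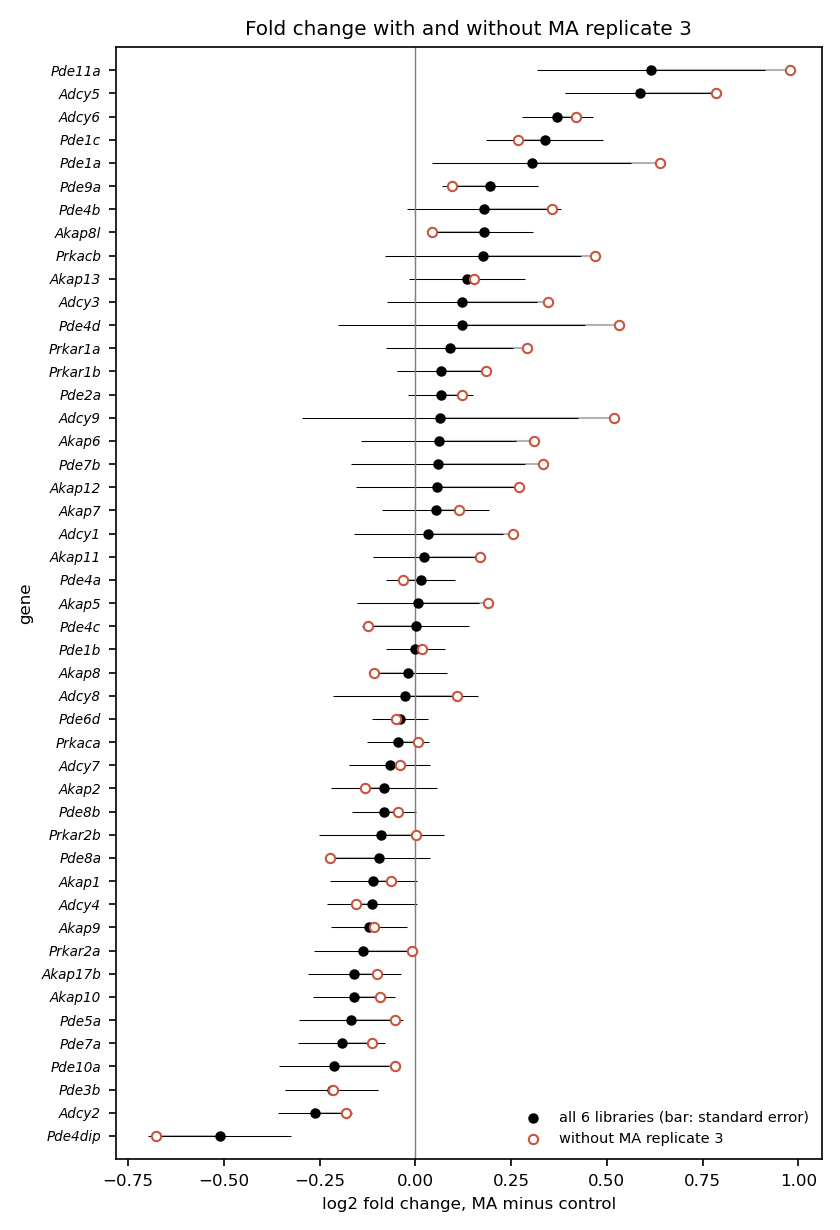
Log2 fold change of the 47 members tested (x axis), ordered by the value over all 6 libraries (filled circles, bars for the standard error), and without MA replicate 3 (open circles). Adcy5 and Adcy6 lie to the right and Adcy2 and Pde4dip to the left in both fits, while Pde1a, Pde4d, Adcy9 and Prkacb move to the right when MA replicate 3 is left out.

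Other genes of the pathway were followed as lists. Of 77 found, 68 were tested, with 34 higher and 34 lower in the MA group and a median log2 fold change of 0.0041. At an unadjusted limma p under 0.05, 0 were higher and 6 were lower (Gpr3, Crhr1, Creb1, Crem, Nbea and Gskip), and none passed the adjusted threshold. Of these 6, Gpr3 and Crem reached it with sample quality weights. Each MA library was below each control library for 7 of the 68 and above each for 0. Over all genes tested the shares were 4.99% higher and 5.46% lower at that p, and 7.32% above and 10.2% below without overlap. This split did not hold without MA replicate 3, where 10 of the 68 were higher and 7 lower at an unadjusted limma p under 0.05 (11.9% and 11.4% of all genes), and 16 and 13 without overlap (20.8% and 22.1% of all genes), near the shares of the whole table.

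Among the receptors, Gpr3, an orphan receptor that raises cAMP without an added ligand, had 2.04, 2.24 and 2.02 in the control libraries and 1.63, 1.29 and 1.35 in the MA libraries. All MA libraries were well below all control libraries, and the log2 fold change was -0.68 with a standard error of 0.13 (limma p = 0.00104, adjusted p = 0.139, exact permutation p = 0.1). Across the 6 fits that left out 1 library it lay between -0.78 and -0.61, with an unadjusted limma p under 0.05 in each. Crhr1, the receptor of corticotropin-releasing hormone, was at 2.40, 2.39 and 2.49 against 2.27, 1.75 and 2.18, a log2 fold change of -0.36 (limma adjusted p = 0.466, exact permutation p = 0.1). It was -0.20 without MA replicate 2, and an unadjusted limma p under 0.05 was kept without MA replicate 1 or 3 and lost without any other library. With all libraries kept, it was also lost with no filter and with the replicate number as a block. Of 19 receptors and peptides tested, 10 were higher and 9 lower, and the dopamine D1-like receptor genes Drd1 and Drd5 had overlapping groups.

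Of the CREB family and its coactivators, 3 were higher and 5 lower. Creb1, the transcription factor that PKA phosphorylates, had 2.78, 2.69 and 2.99 in the control libraries and 2.58, 2.29 and 2.26 in the MA libraries. The groups did not overlap, and the log2 fold change was -0.44 with a standard error of 0.13 (limma adjusted p = 0.323, exact permutation p = 0.1). Crem, whose short cAMP-induced products repress transcription from cAMP response elements, had 4.35, 4.14 and 4.38 against 3.88, 3.84 and 4.11. Every MA library lay below every control library, MA replicate 3 by a small margin, and the log2 fold change was -0.34 (limma adjusted p = 0.350, exact permutation p = 0.1). Its unadjusted limma p stayed under 0.05 without Control replicate 2 or MA replicate 3 only, and that of Creb1 without any 1 library.

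Of 10 anchoring proteins without an Akap symbol, 4 were higher and 6 lower. Nbea, a PKA-binding protein of synaptic trafficking, had 5.92, 5.73 and 5.79 against 5.56, 5.69 and 5.53, a log2 fold change of -0.21 (limma adjusted p = 0.458, exact permutation p = 0.1). Gskip, which binds PKA and GSK3, had 3.48, 3.40 and 3.40 against 3.16, 3.26 and 3.24, also a log2 fold change of -0.21 (limma adjusted p = 0.458, exact permutation p = 0.1). In both the groups did not overlap, and the differences were small. An unadjusted limma p under 0.05 was kept for Nbea only without Control replicate 2 or MA replicate 2, for Gskip only without MA replicate 3, and lost without each other library. With all libraries kept, Nbea also lost it without the trend and with sample quality weights, and both genes lost it with the replicate number as a block. Arpp19, a phosphatase inhibitor that PKA phosphorylates, was the remaining gene without overlap, with a log2 fold change of -0.11.

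The other lists held no gene past the unadjusted threshold. Of 7 G protein alpha subunits 2 were higher and 5 lower, and Gnas, the subunit of Gs and the most abundant of them, had 9.32, 9.30 and 9.44 in the control libraries and 9.64, 9.58 and 9.13 in the MA libraries. Its order of libraries was that of Prkar1a. Of the 3 PKA inhibitor peptides 2 were higher and 1 lower, of 8 other cAMP-binding effectors and exporters 5 and 3, of 5 phosphatase inhibitors 3 and 2, and of 8 genes of cGMP synthesis and cGMP kinases 5 and 3.

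Promoter sequences were searched for all members with a window, because CREB acts through the cAMP response element. RefSeq windows of 300 bases around a transcription start, most of them before it, on GRCm38.p6, were matched by symbol for 44 of the 54 members, with 86 windows. The palindrome TGACGTCA was in 2 of the 86 windows (2.33%), which overlap at Prkar1a and hold the same site, and in 1.79% of all 32851 windows of the table. The shorter element TGACG, searched on both strands and contained in the palindrome, was in 17 of the 86 windows (19.8%) and in 20.8% of all. Counted per gene, the shorter element was in 15 of the 44 members with a window (34.1%) and in 23.0% of all genes, and the palindrome in 1 member (2.27%) and in 2.03% of all genes. A member with several windows counts once here, and no test was made of these shares. A match describes the letters only.

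The window of Prkar1a at chr11:109650699-109650998 (plus strand) holds the palindrome, shown in capitals, with its first base at -49 from the start. The window is printed whole, and it also holds the shorter element outside the palindrome, in small letters:
Prkar1a: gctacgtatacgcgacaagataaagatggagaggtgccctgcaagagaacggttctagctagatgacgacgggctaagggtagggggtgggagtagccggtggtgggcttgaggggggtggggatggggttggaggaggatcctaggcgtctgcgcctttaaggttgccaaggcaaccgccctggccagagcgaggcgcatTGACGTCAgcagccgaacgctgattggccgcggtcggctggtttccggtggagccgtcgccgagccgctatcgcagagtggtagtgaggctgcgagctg
Windows of other PKA subunits held the shorter element, and 60 bases around it are printed 5′ to 3′ along the strand of the gene, with the match in capitals (as TGACG or its reverse complement CGTCA). The window of Prkaca held 2 matches, of which the first is shown. They lie at chr5:139150017-139150076 (minus strand) for Prkar1b, chr9:108692113-108692172 (plus) for Prkar2a, chr8:83972832-83972891 (plus) for Prkaca and chr3:146813015-146813074 (minus) for Prkacb.
Prkar1b: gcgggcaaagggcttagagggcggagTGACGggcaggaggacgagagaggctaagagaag
Prkar2a: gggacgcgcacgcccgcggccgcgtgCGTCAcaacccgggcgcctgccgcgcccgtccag
Prkaca: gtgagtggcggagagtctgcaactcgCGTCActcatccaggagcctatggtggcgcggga
Prkacb: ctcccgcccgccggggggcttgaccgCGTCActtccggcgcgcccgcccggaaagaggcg
These 4 genes did not share a pattern across the libraries: Prkar1b and Prkacb were high in MA replicates 1 and 2, whereas Prkaca and Prkar2a lay there within the range of the control libraries. The windows of Prkar2b held neither element.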

How the data were processed

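The authors state paired-end reads, alignment with Hisat2, counting per gene with featureCounts and conversion to FPKM by gene length, whereas the submitters' processing notes name Bowtie 0.12.2 and the builds mm8 and mm9, without a role. The deposited table bears the name RPKM, but the authors' values are logarithms, taken as log2: back-transformed to base 2 and multiplied by gene length, each library summed to between 1.78e+06 and 1.88e+06, and to far larger sums with other bases. An offset of 1 was read from the lowest value of 0, which MA replicate 3 does not reach. The libraries share 1 highest value, and other values recur between them for different genes, as quantile normalization would leave them. The step behind this is not described. MA was compared with control on these log2 values by limma 3.58.1 (R 4.3.3; lmFit and eBayes, trend on), without covariates, over the 13321 genes that reached an RPKM of 0.5 in 3 or more libraries, with Benjamini-Hochberg adjustment over all of them. DESeq2, the study's own test, needs counts and was not used here. Single genes were also given an exact two-sided permutation test.

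Members under an unadjusted limma p of 0.05, members without overlap and a log2 fold change over 0.3 in size, the most abundant member of each class, the members under the filter and pathway genes at that p were named by rule, and others for their values as seen. The members and lists were chosen with earlier results of these data known. Alternatives were pseudocounts of 0.1 and 0.01, no filter, a minimum mean of 5, median centring, quantile normalization, no trend, sample quality weights, the replicate number as a block, and each library left out in turn. The libraries already shared their highest value and had medians between 3.26 and 3.27. Median centring and quantile normalization could therefore move values little, and they say little of stability. No other column was used, and coordinates are given only for promoter windows (RefSeq, GRCm38.p6), since the build of the counting is not known. Exonic lengths and overlaps came from GENCODE M21.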

Additional observations from a re-analysis of the deposited data

How the results depend on the processing

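Of 31 named genes followed across the alternatives, 19 never changed sign. None passed an adjusted limma p under 0.05 with all 6 libraries at equal weight, so that their side of that threshold says nothing of stability. With all 6 libraries 35 genes of the table passed the adjusted limma threshold, 3 with no filter (all rows tested), 20 with a minimum mean of 5 (which drops Adcy3, Pde1c, Pde4d, Pde11a, Crhr1 and Gpr3), 586 with sample quality weights and 0 to 257 with 1 library left out, highest without MA replicate 3 and 0 without Control replicate 2, Control replicate 3 or MA replicate 2. With sample quality weights 4 members passed the adjusted threshold, where 4.4% of all genes did. At an unadjusted p 11 members were higher and 19 pathway genes passed, where 12.9% of all genes were higher and 13.4% lower. Leaving out 1 library gave 0 to 2 members at an adjusted p. At an unadjusted p it gave 1 to 13 members higher and 0 to 3 lower, and 2 to 17 pathway genes. The shares of all genes at that p were 3.21% to 11.9% higher and 3.02% to 11.4% lower. Members without overlap were 8 to 22 (4 with all libraries), a count that rises as fewer libraries must be separated. The upper ends were all without MA replicate 3, and the cause was not tested. With all libraries kept, signs reversed for 2 small differences among these 31 genes. Pde1b was -0.0015 with median centring and -0.0012 with quantile normalization, and Pde4a was -0.053 with sample quality weights. Outside the 31 genes, Adcy8 and Pde4c also changed sign with these weights, to 0.019 and -0.10. With 1 library left out, the log2 fold change lay between -0.087 and 0.25 for Adcy1, -0.0058 and 0.35 for Adcy3, -0.21 and 0.52 for Adcy9, -0.025 and 0.038 for Pde1b, -0.035 and 0.056 for Pde4a, -0.14 and 0.53 for Pde4d, -0.043 and 0.29 for Prkar1a, -0.023 and 0.19 for Prkar1b, -0.076 and 0.0074 for Prkaca, -0.025 and 0.47 for Prkacb, -0.093 and 0.19 for Akap5, and -0.076 and 0.31 for Akap6. The replicate block was tried because the groups share replicate numbers. Between a control and an MA library of 1 number, the deviations from the group mean had correlations of -0.197, -0.242 and -0.337, which gave no sign of pairing by number. Whether the mice were paired is not stated, and this check cannot decide it, as deviations within a group sum to 0. With the replicate block 15 genes passed the adjusted threshold. The unadjusted limma p was under 0.05 for Adcy5, Adcy6, Pde4dip, Gpr3, Creb1 and Crem. Adcy2, Crhr1, Gskip and Nbea lost it in that fit. The share of all genes at this p was not counted there. Depth is unknown, and low genes such as Pde11a and Pde1c are limited by it.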
